A study of Mus musculus with 9 samples.

Results

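F630028O10Rik (ENSMUSG00000078122) is a long noncoding RNA gene whose transcript carries the hairpin of the microRNA miR-223. Its counts were read in single cells flushed from the femurs of 9 female mice aged 9 to 10 weeks. The mice were 3 NZBWF1, a hybrid that spontaneously develops a lupus-like disease, 3 NZB (New Zealand Black) and 3 NZW (New Zealand White), the parental strains of this hybrid. All were adult animals on standard chow from 1 vendor and 1 delivery, and none was treated. The gene was taken by its symbol, which matched 1 of the 31053 genes in the count table. It was chosen by its measured levels across these cell types and strains, so its levels and its strain differences are given as a description, without a test.

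MicroRNA-223 is among the most abundant microRNAs of neutrophils and monocytes, and it is known as a brake on the production and the activation of neutrophils. Its host transcript is cut in the nucleus by Drosha and Dgcr8, the hairpin is exported by Xpo5 and cut again by Dicer1, and the mature strand is loaded into an Argonaute protein. The loaded strand pairs through its seed with sites in 3′ untranslated regions (UTRs) of messenger RNAs, which lowers their translation and stability. The libraries counted polyadenylated transcripts from their 3′ ends, so the values here are those of the host transcript, and the mature microRNA was not measured.

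In the mouse build GRCm38 (mm10) with the GENCODE vM21 annotation, the gene spans chrX:96239926-96243636 on the plus strand (3711 bases). GENCODE lists it as antisense, although the only other annotated gene within its span is Mir223, on the same strand. The transcript read here has 3 exons with 2771 bases in all, and the hairpin lies within exon 3, ending 710 bases before the 3′ end of the gene. The hairpin (chrX:96242817-96242926) and both mature strands from RefSeq are shown because all targets below are read against the seed. Capitals mark the 3p strand within the hairpin, and the seed (bases 2 to 8) in the mature strands.
Mir223 hairpin: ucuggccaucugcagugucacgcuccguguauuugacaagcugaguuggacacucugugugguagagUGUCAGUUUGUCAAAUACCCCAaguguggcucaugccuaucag
mmu-miR-223-3p: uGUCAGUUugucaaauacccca
mmu-miR-223-5p: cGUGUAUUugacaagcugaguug

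The neighbors of the gene that were counted had other courses or no counts. The 3 nearest annotated genes before it were the pseudogenes Gm9051 and Gm14925, neither of them in the count table, and Msn, which encodes moesin, a linker of the membrane to actin. Msn ended 71374 bases before the gene and was highest in nonclassical monocyte-like cells. After the gene, Vsig4, a complement receptor of macrophages on the minus strand, had its near end, the 3′ end, 3567 bases away, and its highest mean in any class was 0.243 CPM, where CPM is the UMIs (counted molecules) of a gene per 1000000 UMIs of a class in a mouse. Hsf3 was listed at 0 in every class, and the pseudogene Gm14933 was not in the table.

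A total of 39051 of 68444 barcodes passed quality control, 1458 of them were removed as doublets, and 32874 of the 37593 that remained (87.4%) fell in 17 classes. Classes were built from marker genes rather than from proteins, and their names therefore end in "-like". Cells with markers of granulocyte-monocyte precursors (Elane, Mpo, Prtn3, Ctsg, Ms4a3, Gfi1) alone were called precursor-like, those that also had neutrophil granule genes (Ltf, Camp, Ngp and others) early neutrophil-like, and those that also had stem cell markers (Kit, Cd34, Flt3 and others) early precursor-like. Neutrophil-like cells without precursor markers were split into dividing, immature and mature cells. The mature cells were those in which Retnlg, Mmp8, Mmp9, Cxcr2, Csf3r and Il1b made up at least 0.1 of the mature and immature marker UMIs. This split is a range rather than a type, with 2159 of the 8024 cells at a share between 0.05 and 0.2. The kept cells of each mouse numbered 2455 to 5684, with medians of 2182 to 2536 UMIs. In dividing neutrophil-like cells the profile of each mouse was nearest to a mouse of its own strain in 9 of 9. Libraries shared 161 of 37430 cell barcodes. The class of hematopoietic stem and progenitor cells (HSPC-like), with stem cell markers alone, was not pure, as the summed level of 6 megakaryocyte markers in it ran from 136 to 4200 CPM (mean 1970) beside 1040 to 2070 CPM (mean 1560) for the 10 stem and progenitor markers, and the part of these cells in its values was not tested.

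F630028O10Rik was a myeloid transcript with its highest level in the earliest neutrophils. Over the 37593 cells it gave 78053 UMIs, or 656 CPM, and 18684 cells (49.7%) had at least 1 UMI. In early neutrophil-like cells the level was 2067 CPM ± 463 (SD, n = 9 mice), and this class was the highest in 9 of 9 mice. The values were 1307, 1505 and 2506 CPM for NZB, 2008, 2079 and 2762 for NZW, and 1905, 2139 and 2395 for NZBWF1. The highest NZB mouse lay among the other strains and the remaining NZB mice lay below them.

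The level was lower in each class before this stage, and lowest in HSPC-like cells. In these it was 69.8 CPM ± 31.7 (n = 8 mice, since 1 NZBWF1 mouse had fewer than 10 such cells), and it was 186.7 CPM with classes from clusters (n = 9) and 104.4 CPM with at most 5% mitochondrial UMIs (n = 4). Early precursor-like cells had 533 CPM ± 245 (n = 8), a median of 8.56 times the level in HSPC-like cells of the same mouse, and they were higher in 8 of 8 mice. Their values were 282, 222 and 452 CPM for NZB, 460, 580 and 992 for NZW, and 552 and 723 for the NZBWF1 mice with enough cells, and NZB lay lowest, with 52 and 49 UMIs behind the nearest values of NZB and NZW. With each cell thinned to 1000 UMIs these mice had 409.1 and 400.0 CPM, and the strains overlapped. The groups of this class were small, with 188 cells in these 8 mice, and no strain fit was made. Precursor-like cells reached 1443 CPM ± 273 (n = 9), and early neutrophil-like cells were higher than these in 9 of 9 mice, by 1.25 to 1.61 times. With at most 5% mitochondrial UMIs, 78 precursor-like cells in 4 mice remained, with 790.6 CPM ± 183, and early neutrophil-like cells had 1950 CPM and were higher in 4 of 4 mice.

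**Figure D1:**
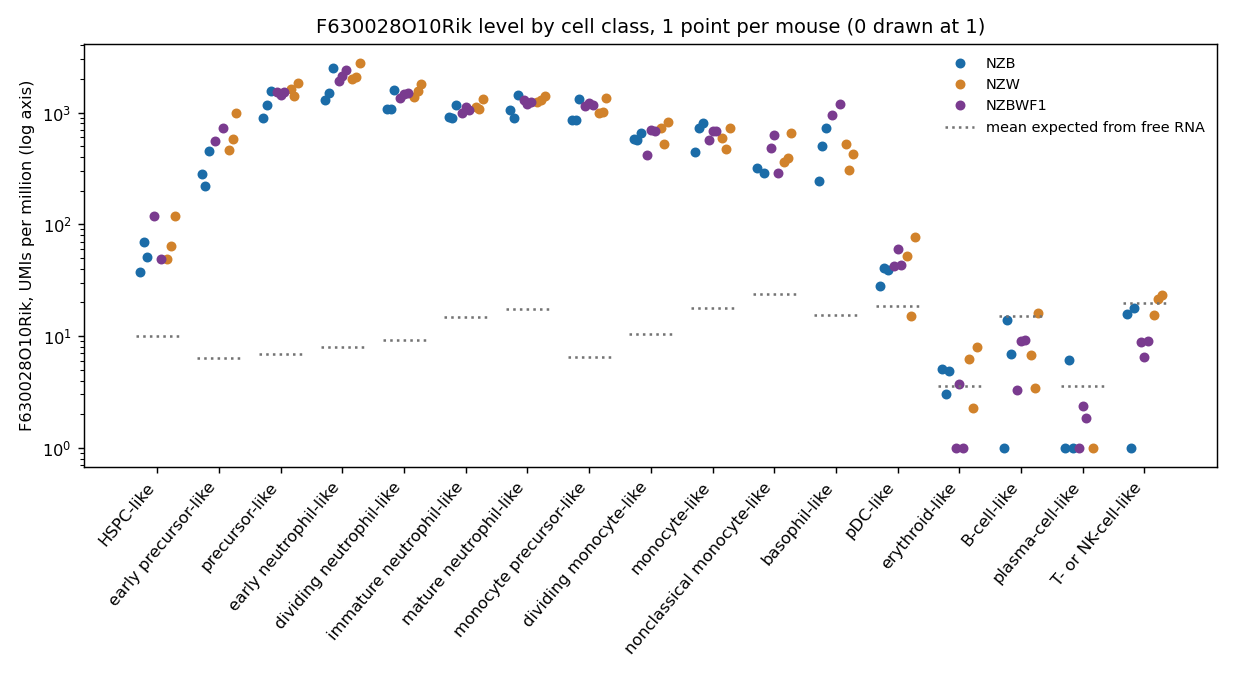
F630028O10Rik in CPM (log axis, 0 drawn at 1) for 17 marker classes, with 1 point per mouse with at least 10 cells, colored by strain. Dotted lines give the mean level expected from free RNA, the RNA outside cells. Its amount was scaled by S100a8 and S100a9 in B-cell-like, T- or NK-cell-like and erythroid-like cells. The neutrophil, monocyte and precursor classes lie between 221.7 and 2762 CPM, whereas the erythroid-like, B-cell-like, plasma-cell-like and T- or NK-cell-like classes lie near the dotted lines.

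In CPM, the level past the early stage was lower but persisted. Of each 1000000 UMIs, the 13 neutrophil markers took a mean of 4500 in precursor-like and 261000 in early neutrophil-like cells. They took 458000 in dividing, 511000 in immature and 465000 in mature neutrophil-like cells, and their part in these levels was not tested. Dividing neutrophil-like cells had 1424 CPM ± 240, which was within the spread of the precursor-like cells (precursor-like cells higher in 5 of 9 mice). Its values were 1073, 1079 and 1604 CPM for NZB, 1384, 1563 and 1812 for NZW, and 1336, 1457 and 1506 for NZBWF1. Again the third NZB mouse lay among the other strains. Immature neutrophil-like cells had 1069 CPM ± 132, lower than dividing cells in 9 of 9 mice, and mature neutrophil-like cells had 1225 CPM ± 169. In mature cells the values were 1046, 885 and 1421 CPM for NZB, 1241, 1304 and 1404 for NZW, and 1286, 1202 and 1239 for NZBWF1, and the NZB mice had the widest range. Mature cells were above immature cells of the same mouse in 9 of 9 mice, but by a median of only 1.15 times, and the lowest ratio was 1.0. This order turned with classes from clusters, where the immature cells had 1228 CPM and the mature cells 1156, and mature cells were higher in 2 of 9 mice. Of the clusters named immature, that of 986 cells, with precursor markers second in score, had 1612.2 CPM. The other immature clusters had 941.1 and 1108.4 CPM, and the mature clusters 1135.7, 1161.2 and 1217.9 CPM. Among cells with at least 2000 UMIs and 1000 genes, limits which 151 of 5171 immature and 45 of 2853 mature cells met, the immature cells had 1221 CPM (149 cells in 8 mice) and the mature cells 1041 (22 cells in 2 mice), and mature cells were higher in 1 of the 2 mice that had both. The nondividing neutrophil-like cells were also divided by the share of mature markers in the mature and immature marker UMIs. The level was 1122 CPM ± 156 at a share under 0.01, 969 ± 129 between 0.01 and 0.02, 1274 ± 167 between 0.3 and 0.5, and 1148 ± 237 at 0.5 and above (n = 9).

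Counted per cell, the course was steeper, as later cells held fewer UMIs. Early neutrophil-like cells had 9.49 F630028O10Rik UMIs per cell ± 2.26 (SD, n = 9) at a median depth of 4021 UMIs. Immature cells had 2.55 per cell at 2184 UMIs, and mature cells had 2.36 per cell at 1814 UMIs. With each cell thinned to 1000 UMIs, 78.2% of the early neutrophil-like cells held at least 1 UMI of the gene (96.2% before thinning), compared with 68.9% of precursor-like, 59.5% of immature and 66.1% of mature cells. The largest number in any cell was 50.

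**Figure D2:**
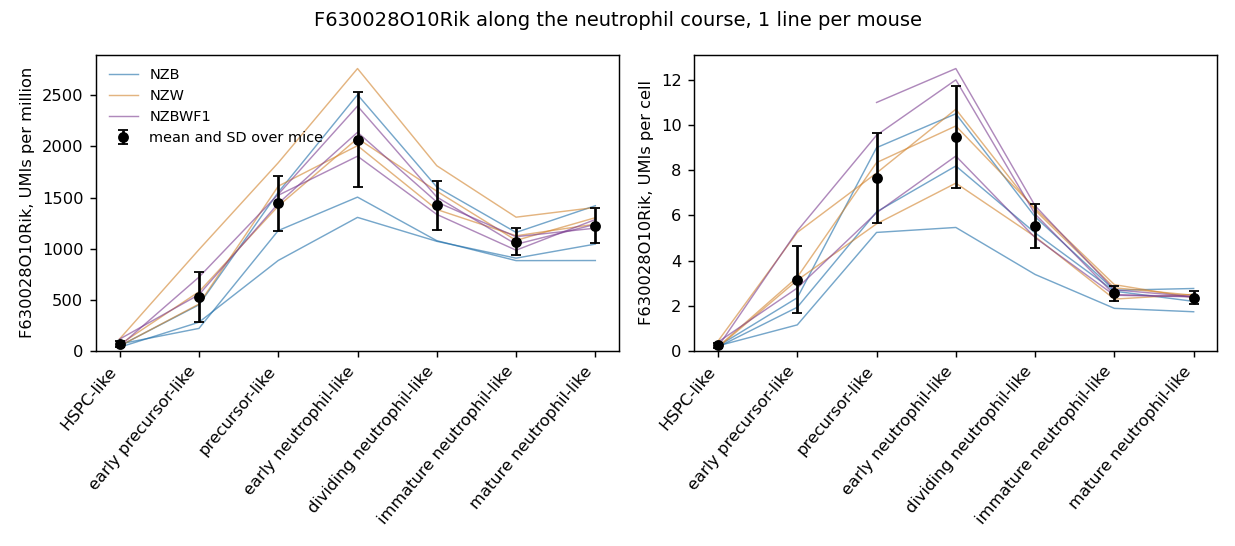
F630028O10Rik along 7 classes from stem and progenitor cells to mature neutrophils, in CPM (left) and UMIs per cell (right). Thin lines are single mice with at least 10 cells in the class, colored by strain, and points with bars are the mean and SD over mice. The mean peaks in early neutrophil-like cells at 2067 CPM and 9.49 UMIs per cell.

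In the monocyte branch the level was lower than in early neutrophil-like cells throughout. Monocyte precursor-like cells, which had precursor and monocyte markers, had 1104 CPM ± 183 (n = 9), below the precursor-like cells in 9 of 9 mice and within the spread of immature neutrophil-like cells (higher in 5 of 9). The order against precursor-like cells turned with at most 5% mitochondrial UMIs, where monocyte precursor-like cells had 984.9 CPM and were higher in each of the 4 mice with enough precursor-like cells. Without this limit their values were 860, 857 and 1317 CPM for NZB, 999.8, 1018 and 1358 for NZW, and 1140, 1219 and 1162 for NZBWF1. Dividing monocyte-like cells had 629 CPM ± 123 and monocyte-like cells 634 CPM ± 123, and with these gates the neighbors could not be separated (higher in dividing cells in 5 of 9 mice). With classes from clusters they had 828.7 CPM ± 129 and 604.8 CPM ± 109, and dividing cells were higher in 9 of 9 mice. Mature neutrophil-like cells were above monocyte-like cells in 9 of 9 mice, by a median of 1.95 times. Nonclassical monocyte-like cells, the patrolling monocytes with Treml4, Ace and Cd300e, had 426 CPM ± 146 (n = 8) and were below monocyte-like cells in 8 of 8 mice. This order also turned with classes from clusters, which gave 655.4 CPM ± 151 from 832 nonclassical cells, with monocyte-like cells higher in 3 of 9 mice. These cells came from a cluster of 629 cells at 528.0 CPM and a cluster of 203 cells at 1049.2 CPM. In the smaller cluster, neutrophil markers scored second to nonclassical markers (1.82 and 2.33). Basophil-like cells had 608 CPM ± 328 (n = 8) from only 140 cells.

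In the lymphoid, plasma-cell-like and erythroid-like classes the gene was near or below the level that free RNA in a droplet would give. It was at 7.64 CPM ± 5.14 in B-cell-like, 13.2 ± 7.62 in T- or NK-cell-like and 3.74 ± 2.57 in erythroid-like cells (n = 9), and at 1.47 ± 2.27 in plasma-cell-like cells (n = 7). HSPC-like cells were above it, with 100 UMIs where free RNA would give 13.7. In pDC-like cells, which carried Siglech and Ccr9 of plasmacytoid dendritic cells, the level was 44.2 CPM ± 18 (n = 9). In all, 150 UMIs were found in them, where free RNA would give 66.7. The profile of free RNA was read from barcodes with fewer than 100 UMIs. Its amount was scaled by the S100a8 and S100a9 UMIs in B-cell-like, T- or NK-cell-like and erythroid-like cells. The expected numbers are therefore not independent of these classes. B-cell-like cells had 138 UMIs where 261 were expected, T- or NK-cell-like cells 29 where 43.6 were expected, erythroid-like cells 63 where 65.5 were expected, and plasma-cell-like cells 5 where 9.66 were expected. A UMI was seen in 119 of 7502 B-cell-like cells (1.59%, 95% exact interval 1.32% to 1.90%, counting error only), at a median depth of 1650 UMIs. At the similar depth of 1682 UMIs, 132 of 2018 pDC-like cells had one (6.54%, 5.50% to 7.71%). After thinning the shares were 0.918% and 4.35% as means over mice.

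Cells without a class were set aside. Of these, 892 passed no gate, and 3827 passed other gates or combinations of gates. The latter took in gates of unlike lineages, and the macrophage or the conventional dendritic cell gate alone. No class level is therefore given for conventional dendritic cells. A cluster of 586 cells, with their markers first and pDC markers second in score, had 160.5 CPM. Among the cells set aside, 859 cells with B cell and neutrophil markers had 849.5 CPM, and 358 cells with macrophage and neutrophil markers had 1177 CPM. The 51 cells with macrophage markers alone had 268 CPM.

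The 5 genes whose course over the 17 classes was most like that of F630028O10Rik, among 6125 genes with a mean of at least 50 CPM in some class, were Gpi1, Txndc17, Dstn, Ncam1 and Aprt. Likeness was the Spearman correlation of log2(mean CPM + 1) over classes, which share mice, depth and libraries, and it is given as a description. The correlation was 0.97 for Gpi1, an enzyme of glycolysis, and 0.92 for Txndc17, a thioredoxin-like protein, Dstn, which takes actin filaments apart, Ncam1, a cell adhesion molecule, and Aprt, which salvages adenine and was tied with Hk3, a hexokinase. Gpi1 and Aprt were highest in early neutrophil-like cells, at 669 CPM ± 164 and 722 CPM ± 69.9 (n = 9). Dstn had 769 CPM in early and 716 CPM in mature neutrophil-like cells, and Ncam1 was highest in dividing neutrophil-like cells at 102 CPM ± 15.8. Gpi1 had 151 CPM in B-cell-like cells, where F630028O10Rik was at background.

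Other microRNA host genes had different courses. Of 8 symbols of this kind in the table, Mir17hg and Mir142hg reached 10 CPM in some class. Mir17hg, the host of the miR-17-92 cluster, had 36.2 CPM in early precursor-like cells, 4.81 in early neutrophil-like cells and 0.355 in mature neutrophil-like cells. Mir142hg, whose microRNA is found throughout blood cells, had 35.9 CPM in T- or NK-cell-like cells, 4.74 in early neutrophil-like cells and 22.8 in mature neutrophil-like cells.

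**Figure D3:**
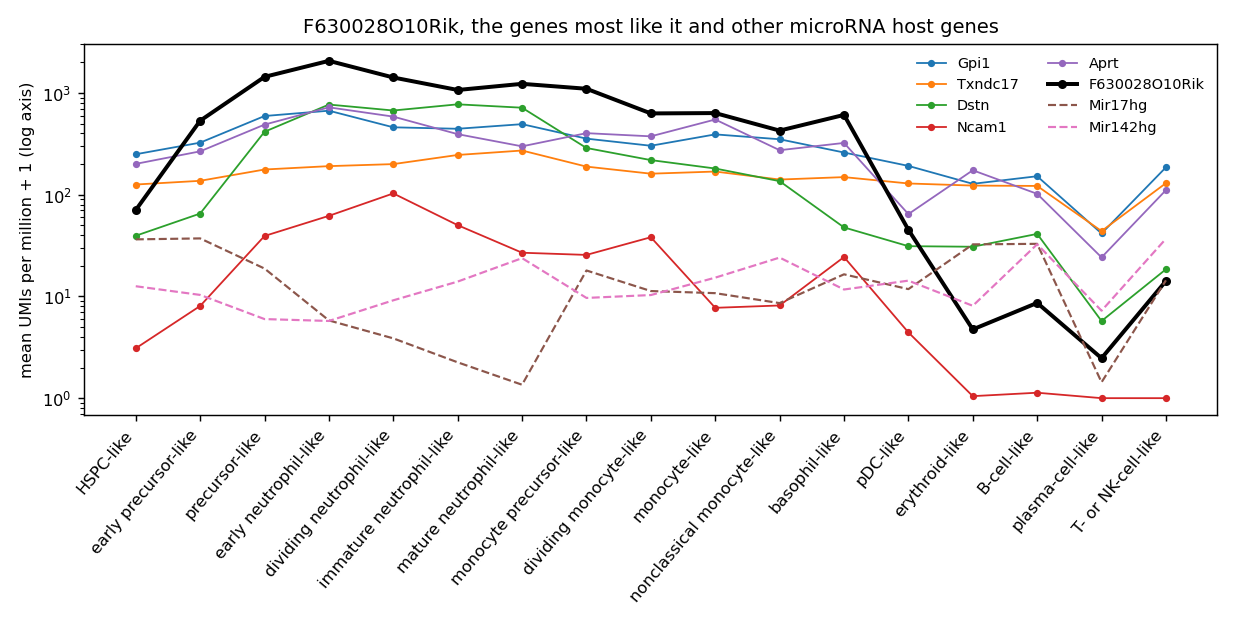
Mean level (CPM + 1, log axis) over mice in 17 classes for F630028O10Rik (black), the 5 genes with the most similar course (thin lines) and 2 other microRNA host genes (dashed lines). F630028O10Rik spans from 1.47 CPM in plasma-cell-like cells to 2067 CPM in early neutrophil-like cells, while Mir17hg is lowest in mature neutrophil-like cells.

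Between strains, the estimates for F630028O10Rik were lower in NZB than in NZW along the neutrophil course, and how far they narrowed toward its end depended on the scaling. In precursor-like cells the levels were 886, 1178 and 1552 CPM in NZB, 1612, 1417 and 1841 in NZW, and 1523, 1443 and 1533 in NZBWF1. The NZB and NZW mice overlapped through the highest NZB mouse. The log2 difference between NZB and NZW, as fitted by edgeR with its scaling factors, was -0.63 (SE 0.132), and over the alternatives that could be fitted it ran from -0.81 to -0.43. With at most 5% mitochondrial UMIs too few mice were left for a fit. The difference was -0.42 (SE 0.228) in early neutrophil-like cells, -0.26 (SE 0.108) in dividing, -0.08 (SE 0.116) in immature and -0.08 (SE 0.118) in mature neutrophil-like cells. Without scaling factors, an alternative added after seeing the data, the differences in these 5 classes were -0.43 (SE 0.133), -0.36 (SE 0.248), -0.34 (SE 0.136), -0.26 (SE 0.118) and -0.25 (SE 0.129), while the median of all genes was 0.18 in precursor-like and -0.19 in immature and mature cells. In CPM, mature neutrophil-like cells had means of 1118 ± 275 in NZB and 1317 ± 82.2 in NZW (n = 3 each). Single mice moved these values. Without NZB replicate 3 the early, dividing, immature and mature estimates were -0.72, -0.43, -0.18 and -0.24. The early estimate was -0.25 without NZW replicate 3 and -0.26 without NZB replicate 1, and without NZB replicate 2 the dividing, immature and mature estimates were -0.16, -0.01 and 0.07. The estimate was -0.3 (SE 0.204) in immature cells with at least 2000 UMIs and 1000 genes and 0.05 (SE 0.11) in mature cells with classes from clusters. Beside these values, the summed precursor markers in precursor-like cells were 37700 to 40600 CPM in NZB and 45100 to 55700 in NZW without overlap, so the NZB cells of this class had less of the markers that defined it. The median share of mitochondrial UMIs in the class was 5.61% to 6.15% in NZB and 6.60% to 7.35% in NZW. In early neutrophil-like cells the precursor markers went the other way, with 28600 to 30400 CPM in NZB and 25700 to 26700 in NZW. The part of these differences in the result was not tested.

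In the monocyte branch the difference between NZB and NZW was -0.24 (SE 0.134) in monocyte precursor-like, -0.20 (SE 0.179) in dividing monocyte-like and 0.15 (SE 0.195) in monocyte-like cells. Without 1 mouse these ran from -0.45 (without NZB replicate 3) to -0.07 (without NZW replicate 3), from -0.37 (without NZW replicate 2) to -0.05 (without NZW replicate 3) and from -0.02 (without NZW replicate 2) to 0.34 (without NZB replicate 1). The monocyte-like values were 440, 731 and 799 CPM in NZB, 597, 472 and 722 in NZW, and 564, 689 and 690 in NZBWF1, and all strains overlapped. The 13 neutrophil markers in these cells summed to 2130 to 5800 CPM in NZB and 1310 to 1480 CPM in NZW, and their part was not tested. In nonclassical monocyte-like cells NZB lay below NZW in each of the mice used, with a difference of -0.65 (SE 0.397) from 2 NZB mice of 31 and 22 cells, since 1 NZB mouse had too few. The NZW values were 362, 393 and 652 CPM and the NZB values 319 and 289, and the estimate was -0.12 (SE 0.264) with classes from clusters, -1.38 (SE 0.754) with stricter gates and -0.32 without NZW replicate 3. In these cells 13 neutrophil markers summed to 546 and 1220 CPM in NZB and to 1600, 5470 and 6500 CPM in NZW, and their part was not tested. In pDC-like cells NZBWF1 (42.5, 59.7 and 43.3 CPM) lay above NZB (27.9, 40.6 and 38.9 CPM) and overlapped with NZW (52.4, 15.1 and 77.6 CPM). The difference between NZBWF1 and NZB was 0.42 (SE 0.285), or 0.25 without NZBWF1 replicate 2 and 0.27 without NZB replicate 1. Over 19 alternatives this difference ran from 0.01 to 0.91. The lowest NZBWF1 value rests on 10 UMIs, free RNA would give 7.26 to 29.7 CPM in these mice of NZB and NZBWF1, and with each cell thinned to 1000 UMIs the strains overlapped (31.25 to 65.84 CPM in NZBWF1 and 27.78 to 42.17 CPM in NZB).

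The hybrid lay between or near its parents in the 8 main myeloid classes (precursor-like cells and the 4 neutrophil-like and 3 monocyte or monocyte precursor classes with nonclassical cells left out), where the log2 difference between NZBWF1 and the mean of the parents ran from -0.12 (SE 0.101) in immature neutrophil-like cells to 0.14 (SE 0.117) in monocyte precursor-like cells. Basophil-like cells stood apart with 1.25 (SE 0.274). There the NZBWF1 mice had 945 and 1201 CPM from 18 and 17 cells, the NZB mice 242, 500.2 and 723, and the NZW mice 519.6, 308 and 426. NZBWF1 replicate 1 had 8 basophil-like cells, was left out of the fit, and had 412 CPM, within the range of the parents. Monocyte markers in basophil-like cells summed to 409 and 540 CPM in these NZBWF1 mice and to 80.6 to 308 CPM in the parents, and their part was not tested. The class also takes in cells that passed both the basophil and the precursor gate. Precursor markers in it summed to 4180 to 7320 CPM over the mice used, and the part of these cells was not tested.

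The spread between mice of a strain was shared between classes. The third NZB mouse and the third NZW mouse had the highest level of their strain in 8 of 8 myeloid classes each. Their kept cells as a whole had 794 and 771 CPM, compared with 579 to 671 CPM in the remaining mice of both strains. In NZBWF1 the third mouse was the highest in 4 of 8 classes. The third library of each strain also had the most free RNA of its strain by the S100a8 and S100a9 scaling above. The estimates were 33.9 (NZB), 49.2 (NZW) and 39.4 (NZBWF1) UMIs per droplet with a cell. In early neutrophil-like cells of these mice, free RNA would give 10.3 of 2506 CPM (NZB), 15.3 of 2762 (NZW) and 6.44 of 2395 (NZBWF1). The part of free RNA in the spread between mice was not tested. Because the same libraries supplied every class, the classes are not independent replicates of a strain difference.

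**Figure D4:**
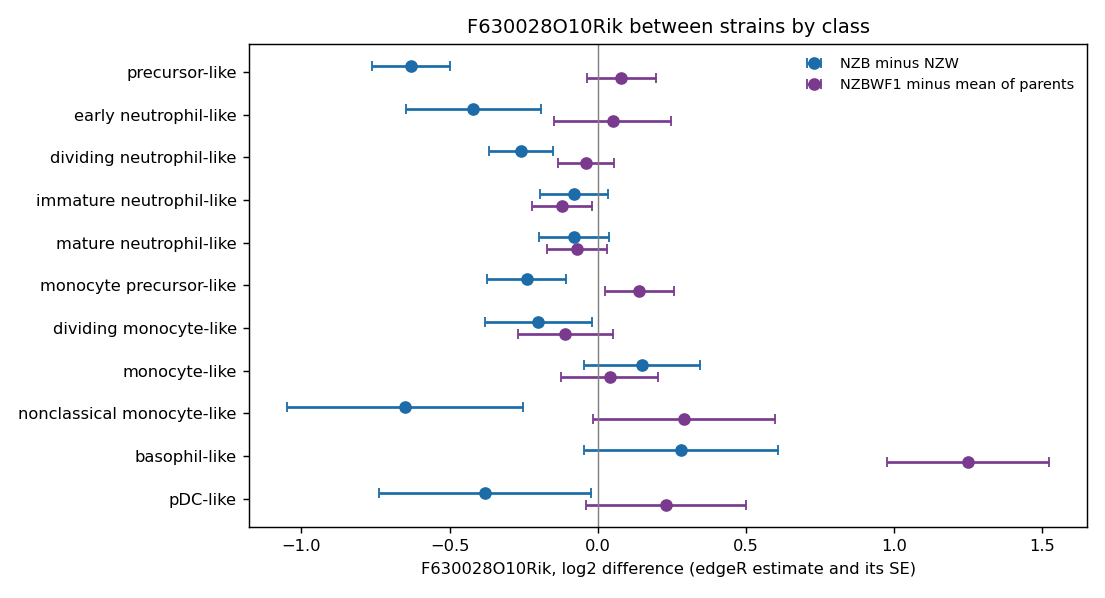
Log2 difference of F630028O10Rik between NZB and NZW (blue) and between NZBWF1 and the mean of the parents (purple) in 11 classes, with bars for the SE of the edgeR estimate. With TMM scaling the estimate for NZB minus NZW is -0.63 in precursor-like cells and -0.08 in mature neutrophil-like cells (-0.43 and -0.25 without scaling factors), and the value of 1.25 for NZBWF1 in basophil-like cells rests on 2 NZBWF1 mice.

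Genes known as targets of miR-223 were then compared between strains, using 26 genes from the literature of this microRNA. This list and those of regulators and processing genes below were chosen with earlier results of these data known. Their shares of called tests are therefore a description and not an independent test of the lists. The 7 letter site AACTGAC, which pairs with the seed of the 3p strand, was found in the longest annotated 3′ UTR of 19 of the 26 genes (73.1%) and of 1733 of 21020 protein-coding genes (8.24%), on the transcribed strand. The UTRs of the targets were longer, with a median of 1576 bases against 961. The 8 letter site AACTGACA, which contains the first, was found in 11 of the 26 (42.3%) and in 618 of all genes (2.94%). The 26 genes were listed because they are known targets, so these shares describe the list and do not test it. Sites of Hsp90b1, Rhob, Nlrp3, Igf1r and Lmo2 are shown with their surroundings in 30 bases, with the letters that match the site in capitals. They lie at chr10:86690880-86690909 (minus strand) for Hsp90b1, chr12:8497756-8497785 (minus) for Rhob, chr11:59566691-59566720 (plus) for Nlrp3, chr7:68226628-68226657 (plus) for Igf1r and chr2:103981319-103981348 (plus) for Lmo2. Rhob had 2 sites of 7 letters, and its 8 letter match is shown. Sites were also found for Mef2c, E2f1, Nfia, Pknox1, Foxo3, Hmgcs1, Cxcl2 and Ccl3, which are named below. Neither site was found in the 3′ UTR of Stat3, Ndfip1 or Parp1.
Hsp90b1: ttgtactatttAACTGACtattggtgtaaa
Rhob: ttttttaaataAACTGACAgatgacaaatg
Nlrp3: gtcttcctgttAACTGACcatcccgcataa
Igf1r: cccgaacccttAACTGACAtgggcctctgc
Lmo2: ctagccatagtAACTGACAagattagtgga

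Along the neutrophil course the targets took different paths. Compared with HSPC-like cells, early neutrophil-like cells had less Mef2c, a transcription factor of progenitors and lymphoid cells (9.96 against 415 CPM, lower in 8 of 8 mice), and less Lmo2, a bridging factor of stem and erythroid cells (90.8 against 470 CPM, 8 of 8 mice). Hsp90b1, a chaperone of the endoplasmic reticulum, had its highest neutrophil-course level in precursor-like cells, at 933 CPM ± 319 (n = 9), and had 56.1 CPM ± 20.3 in mature neutrophil-like cells. From early to mature neutrophil-like cells, Igf1r, a growth factor receptor, went from 53.0 to 132 CPM, Foxo3, a transcription factor of quiescence, from 6.14 to 30.3 CPM, and Nlrp3, the inflammasome sensor, from 0.295 to 16.4 CPM, each higher in mature cells of 9 of 9 mice. Cxcl2 and Ccl3, which encode chemokines, stayed at or below 1.51 CPM in all neutrophil classes.

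Target genes differed between NZB and NZW in both directions, with Hsp90b1 and Stat3 higher and Rhob and Nlrp3 lower in NZB. In the 8 main myeloid classes edgeR called 11.1% of all tests at an adjusted p under 0.05 (5168 of 46415), and of 113 tests of 19 targets that passed the filter on low counts, 29 were called (25.7%). The count was 15 of 104 by DESeq2, 16 of 79 with at least 2000 UMIs and 1000 genes, where mature neutrophil-like cells could not be fitted, and 19 of 117 without NZW replicate 3. Here and below, the share of all genes called under an alternative is not given. Such counts are therefore not read against the share of the main fit. Of the 29, 12 were higher and 17 lower in NZB, and they belonged to 10 genes. The median log2 difference of the target tests was -0.15, and that of all genes was between -0.02 and -0.01 in each class. By class, edgeR called 9.37% of genes in precursor-like, 6.87% in early, 10.9% in dividing, 11.6% in immature and 11% in mature neutrophil-like cells, and 10.3% in monocyte precursor-like, 11.4% in dividing monocyte-like and 15.7% in monocyte-like cells.

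Relative to NZW, Hsp90b1 rose in NZB in 7 of 8 classes. In early neutrophil-like cells its levels were 571, 684 and 686 CPM in NZB, 273, 335 and 305 in NZW, and 510, 393 and 377 in NZBWF1. All NZB mice lay above all others, with a log2 difference between NZB and NZW of 1.05 (SE 0.131, edgeR adjusted p = 8.96e-11). The precursor markers in early neutrophil-like cells, given above, were also higher in NZB than in NZW, and their part was not tested. In monocyte-like cells the difference was 1.27 (SE 0.131, edgeR adjusted p = 2.09e-10). The part of the neutrophil markers in these cells, given above, was not tested. Stat3, the signal transducer of interleukin-6 and G-CSF, rose in NZB in 4 of 8 classes, although the call in immature neutrophil-like cells was kept in 14 of 20 alternatives and lost without scaling factors (edgeR adjusted p = 0.116). In dividing monocyte-like cells its levels were 117, 178 and 179 CPM in NZB and 96.4, 82.9 and 78.6 in NZW, with a difference of 0.95 (SE 0.172, edgeR adjusted p = 1.68e-05). The neutrophil markers in dividing monocyte-like cells summed to 2840 to 5760 CPM in NZB and 1040 to 1490 CPM in NZW, and their part was not tested. Ndfip1, an adaptor of ubiquitin ligases, rose in dividing neutrophil-like cells by 0.81 (SE 0.177, edgeR adjusted p = 0.000876).

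Rhob, a small GTPase of the cytoskeleton, fell in NZB in 6 of 8 classes, although the calls in dividing monocyte-like, immature neutrophil-like and monocyte-like cells were kept in only 12, 13 and 13 of 20 alternatives. In monocyte precursor-like cells it had 11.6, 15.2 and 16.2 CPM in NZB, 48.2, 31.6 and 37.1 in NZW, and 37.7, 33.6 and 29.6 in NZBWF1. NZB did not overlap with the other strains, and the log2 difference from NZW was -1.48 (SE 0.258, edgeR adjusted p = 1.91e-05). Nlrp3 fell in NZB in all 3 classes in which it could be tested, of which the call in mature neutrophil-like cells was kept in 11 of 19 alternatives. In monocyte-like cells its levels were 16.0, 20.8 and 8.94 CPM in NZB and 51.7, 43.0 and 59.3 in NZW. In NZBWF1 they were 41.0, 39.3 and 29.6 CPM. The difference between NZB and NZW was -1.75 (SE 0.357, edgeR adjusted p = 0.000304). The NZB levels rest on few Nlrp3 UMIs, as these mice had 250048, 336626 and 335397 UMIs of all genes in this class. The NZW mice had 619390, 837815 and 860744. Lmo2 fell in 3 classes, and its difference in monocyte-like cells was -0.78 (SE 0.173, edgeR adjusted p = 0.000937). Igf1r fell in monocyte precursor-like cells (kept in 11 of 19 alternatives) and in mature neutrophil-like cells. In the latter its levels were 87.0, 80.0 and 106 CPM in NZB and 140, 132 and 162 in NZW, and the difference of -0.52 (SE 0.168, edgeR adjusted p = 0.0419) was kept in only 9 of 20 alternatives. E2f1, a factor of the cell cycle, Pknox1, a homeobox factor, and Hmgcs1, an enzyme of cholesterol synthesis, each fell in 1 class. The remaining 9 targets tested, among them Mef2c, Foxo3 and Parp1, were not called in any of the 8 classes.

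The hybrid differed from NZB in 14 of the 113 target tests (12.4%), where 4.45% of all tests were called, with 4 higher and 10 lower in NZBWF1. The calls belonged to 6 genes. The lower calls were Hsp90b1 in 6 classes, Stat3 in 2 and Ndfip1 in 2, and the higher calls were Igf1r in 2, Nlrp3 in 1 and Rhob in 1. The median log2 difference of the target tests was 0.11, and that of all genes was between 0.0 and 0.02 in each class. The count of calls was 7 of 116 without NZB replicate 2, 8 of 99 by DESeq2 and 9 of 79 with at least 2000 UMIs and 1000 genes. Without scaling factors it was 17, with 8 higher and 9 lower. By class the share of all genes called was 1.15% in precursor-like, 1.67% in early, 4.19% in dividing, 4.24% in immature and 5.77% in mature neutrophil-like cells, and 3.15%, 5.3% and 8.65% in monocyte precursor-like, dividing monocyte-like and monocyte-like cells. This comparison shares its NZB mice with the preceding one. Hsp90b1 fell by 0.86 (SE 0.131, edgeR adjusted p = 6.63e-06) in monocyte-like cells of NZBWF1 relative to NZB. Rhob rose in monocyte precursor-like cells by 1.22 (SE 0.275, edgeR adjusted p = 0.0038). Against NZW, where edgeR called 0.98% of all tests, and against the mean of the parents, where it called 0.437%, no target was called in the 113 tests. At an unadjusted p under 0.05 there were 16 and 18, and DESeq2 called 0 in both. In the order of classes above, the shares of all genes called were 0.971%, 1.03%, 1.49%, 1.26%, 0.99%, 0.841%, 0.55% and 0.759% against NZW, and 0.113%, 0.285%, 0.61%, 0.331%, 0.377%, 0.244%, 0.503% and 0.862% against the mean of the parents.

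**Figure D5:**
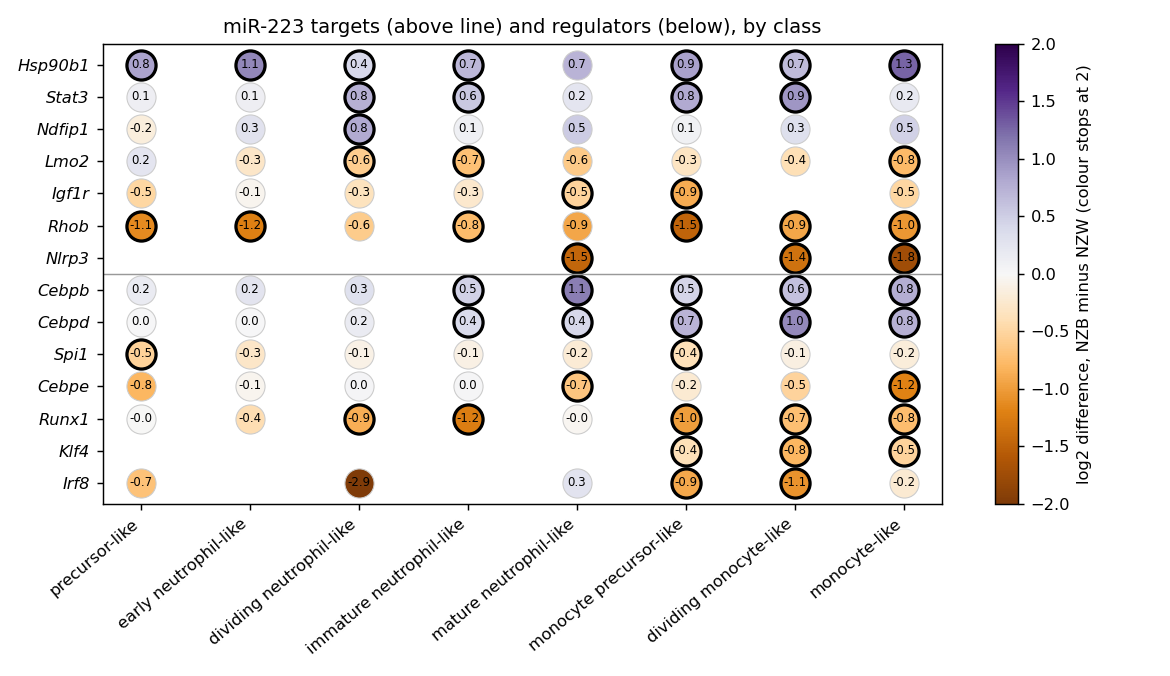
Log2 difference between NZB and NZW (color and number) of 7 targets of miR-223 (above the line) and 7 regulators of myeloid cells (below) in 8 myeloid classes. Black rings mark an edgeR adjusted p under 0.05, and empty places were not tested. Hsp90b1 is ringed in 7 classes with higher values in NZB, and Rhob in 6 with lower values.

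Regulators of myeloid transcription and of the host gene were compared in the same way, with the same limit on the choice of the list. Spi1 (PU.1) and the C/EBP factors are known to drive miR-223, while Nfia and E2f1, which are also targets above, are known as repressors of its transcription. Along the course Cebpe, the factor of granule gene expression, went from 1.24 CPM in HSPC-like cells to 822 CPM ± 92.1 (n = 9) in early neutrophil-like and 1110 CPM ± 107 in dividing neutrophil-like cells, although it was also 1 of the markers behind these classes. Cebpb was at 400.0 CPM ± 58.4 in early neutrophil-like cells and at 968 CPM ± 290 in monocyte-like cells, where F630028O10Rik was lower. Spi1 was higher in mature than in early neutrophil-like cells in 9 of 9 mice (641 against 302 CPM). Nfia was at or below 9.51 CPM in every class from stem cells to mature neutrophils and monocytes, and it passed the filter on low counts in none of the 8 classes.

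NZB differed from NZW in 26 of 93 regulator tests (28%, beside 11.1% of all tests), with 10 higher and 16 lower in NZB, in 9 of the 15 genes tested of 16. By DESeq2 the count was 17 of 90. Cebpb and Cebpd each rose in NZB in 5 of 8 classes. In mature neutrophil-like cells Cebpb had 245, 382 and 289 CPM in NZB, 139, 196 and 148 in NZW, and 203, 183 and 174 in NZBWF1, with NZB above both, and the log2 difference from NZW was 1.12 (SE 0.166, edgeR adjusted p = 1.05e-05). Cebpd differed by 1.04 (SE 0.179, edgeR adjusted p = 0.000297) in dividing monocyte-like cells. The neutrophil markers in these cells, given above beside Stat3, were also higher in NZB, and their part was not tested. F630028O10Rik differed by -0.08 in mature neutrophil-like and -0.20 in dividing monocyte-like cells (-0.25 and -0.21 without scaling factors). Without scaling factors the calls of both factors in immature and of Cebpd in mature neutrophil-like cells were lost.

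Irf8, Runx1 and Klf4 were among the regulators that fell in NZB. Irf8, the factor of monocyte and dendritic cell fate, had 609, 478 and 631 CPM in monocyte precursor-like cells of NZB, 918, 983 and 1170 in NZW, and 931, 816 and 903 in NZBWF1. NZB lay below both, and the difference from NZW was -0.91 (SE 0.118, edgeR adjusted p = 1.68e-08). Runx1, a factor of blood stem cells and progenitors, fell in 5 classes, with -0.99 (SE 0.152, edgeR adjusted p = 1.42e-06) in monocyte precursor-like cells. Klf4 fell in 3 monocyte classes and Csf1r, the receptor for M-CSF, in monocyte-like cells, and both were also markers of the monocyte gate. The Klf4 call in monocyte precursor-like cells was kept in 14 of 21 alternatives and the Csf1r call in 15 of 21. Spi1 fell by 0.54 (SE 0.166, edgeR adjusted p = 0.0225) in precursor-like cells and by 0.38 (SE 0.117, edgeR adjusted p = 0.0225) in monocyte precursor-like cells, where F630028O10Rik differed by -0.63 and -0.24. These calls were kept in 13 of 20 and 12 of 21 alternatives, and both were lost without scaling factors (edgeR adjusted p = 0.165 and 0.0837). In precursor-like cells Cebpb differed by 0.16 (SE 0.153) and was not called. Cebpe, a marker of the neutrophil gate, fell in monocyte-like cells by 1.2 (SE 0.34, edgeR adjusted p = 0.00995) and in mature neutrophil-like cells by 0.66 (SE 0.144, edgeR adjusted p = 0.00191).

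NZBWF1 differed from NZB in 10 of the 93 regulator tests (10.8%, beside 4.45% of all tests), of which 6 were higher and 4 lower in NZBWF1. The count was 7 of 84 by DESeq2, 8 without NZB replicate 2, 15 without scaling factors and 17 with classes from clusters. It was 9 of 72 with at least 2000 UMIs and 1000 genes, where mature neutrophil-like cells could not be fitted. Irf8 rose by 0.66 (SE 0.119, edgeR adjusted p = 0.000162) in monocyte precursor-like cells, and Cebpb fell by 0.90 (SE 0.161, edgeR adjusted p = 0.000477) in mature neutrophil-like cells. No regulator was called by edgeR against NZW or against the mean of the parents, with 13 and 8 at an unadjusted p under 0.05, and DESeq2 called 0 in both.

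Several genes that process microRNAs had lower levels in mature than in early neutrophil-like cells. Dgcr8, the partner of Drosha, went from 14.8 CPM in early to 1.09 in mature neutrophil-like cells, and Dicer1 from 32.8 to 8.18 CPM, each lower in 9 of 9 mice. Drosha went from 3.50 to 0.396 CPM. Ago2, the Argonaute that can cut its target, went the other way, from 33.3 to 77.9 CPM, and Tnrc6b, an Argonaute partner in silencing, from 55.8 to 179 CPM, each higher in mature cells of 9 of 9 mice. F630028O10Rik had 2067 and 1225 CPM in these classes. Between NZB and NZW, 4 of 64 processing tests of 11 of 13 genes were called (6.25%, beside 11.1% of all tests). The count was 1 of 58 by DESeq2 and 0 of 46 with at least 2000 UMIs and 1000 genes, where mature neutrophil-like cells, with 2 of the 4 calls, could not be fitted. Ago4 fell in NZB in mature neutrophil-like and monocyte-like cells, Ago2 fell in dividing neutrophil-like cells (kept in 13 of 21 alternatives), and Prkra, a partner of Dicer1, rose in mature neutrophil-like cells by 1.71 (SE 0.428, edgeR adjusted p = 0.00658). Between NZBWF1 and NZB, 1 of 64 was called (1.56%, beside 4.45% of all tests), for Ago4 in monocyte-like cells, and 0 were called by DESeq2, with at least 2000 UMIs and 1000 genes or without NZB replicate 2, but 4 without scaling factors. None was called by edgeR against NZW or the mean of the parents (4 and 3 at an unadjusted p under 0.05), and DESeq2 called 0 in both.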

How the data were processed

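Libraries of 9 mice (3 per strain, with the strain from the labels and each replicate a separate mouse) were prepared with 3′-end v3.1 chemistry of the 10x Chromium platform. The deposited values are UMI counts per gene and barcode, which the authors made with Cell Ranger 3.1.0 (with bcl2fastq 2.20 and mm10 named in the submitters' processing notes) and merged over libraries. Equalization of depth on merging was not given in the sources. Barcodes were assigned to mice by the number in the barcode and the order in the deposited aggregation sheet. Barcodes were kept if they had 1000 UMIs or more, 500 genes or more and no more than 10% mitochondrial UMIs, giving 8106539 to 18663189 UMIs for each mouse, and those scoring highest against simulated doublets were removed at 0.8% for every 1000 barcodes. No column of another sample was present (0 left out).

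Cells were assigned to classes by minimum UMIs of marker genes (for example 10 UMIs from 3 markers for the precursor and neutrophil gates). Cells that passed gates of unlike lineages, no gate, or the macrophage or conventional dendritic cell gate alone were set aside. The minimums, the mature split at 0.1 and the dividing split (3 UMIs from 2 markers) were set after seeing the data. F630028O10Rik, the members and the lists were chosen with earlier results of these data known. Named were the members called with the 5 smallest p-values per list, those with the largest neutrophil levels, the 5 genes most like F630028O10Rik, its 3 neighbors on each side and other hosts with at least 10 CPM. E2f1, Pknox1, Hmgcs1, Mef2c, Foxo3, Parp1, Cxcl2, Ccl3, Nfia, Csf1r, Dgcr8, Dicer1, Drosha and those without a call were named after their values were seen.

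UMIs were summed over the cells of a class in each mouse, with 10 cells as the minimum for a mouse to enter. Strains were compared in edgeR 4.0.16 (filterByExpr, TMM, robust quasi-likelihood F-test, Benjamini-Hochberg adjustment over all genes tested in a class, threshold 0.05, all 3 strains in 1 fit, coefficients -0.5, 1 and -0.5 against the mean of the parents) in R 4.3.3. No test was made for F630028O10Rik. The fit was tested on simulated counts with known changes. DESeq2 1.42.0, other filters, gates, clusters (scanpy 1.11.5), thinning, free RNA subtraction, leaving out each mouse and, added after seeing the data, a fit without scaling factors served as alternatives. Exact binomial intervals and limits cover counting error only. MicroRNA sequences were taken from RefSeq (GRCm38.p6). 3′ UTR sites came from GENCODE vM21.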

Additional observations from a re-analysis of the deposited data

Results flagged for a closer look

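F630028O10Rik was also present outside the cells that were compared. In free RNA, read from barcodes with fewer than 100 UMIs, it ranged from 630.1 CPM in the lowest to 1606 CPM in the highest mouse, and in the called barcodes that failed quality control from 292.2 to 925.8 CPM. These values stand above the level of the B-cell-like, erythroid-like, plasma-cell-like and T- or NK-cell-like cells of the same libraries, in which 235 UMIs were found and 380 would be expected from free RNA. The expected number was scaled by S100a8 and S100a9 in the same B-cell-like, erythroid-like and T- or NK-cell-like cells, so it is not an independent check of them. The ratio of free RNA to kept cells was 1.08 to 2.35 for F630028O10Rik, 0.321 to 0.633 for Ngp, a neutrophil granule gene, 0.531 to 1.01 for S100a8 and 0.764 to 1.36 for the nuclear RNA Malat1. Scaled by S100a8 and S100a9, free RNA came to 15.9 to 49.2 UMIs for each droplet with a cell, or 0.729% to 2.21% of the median UMIs of a kept cell.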

How the results depend on the processing

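The level of F630028O10Rik moved by less than 1 SD over mice in 179 of 188 alternatives, and its strain differences by less than 1 SD within strains in 880 of 892. The levels that moved were HSPC-like 104.4 CPM and precursor-like 790.6 CPM with at most 5% mitochondrial UMIs, immature neutrophil-like 1221 and mature neutrophil-like 1041 CPM with at least 2000 UMIs and 1000 genes, pDC-like 26.11 CPM after subtraction of free RNA, and with classes from clusters HSPC-like 186.7, immature neutrophil-like 1228, dividing monocyte-like 828.7 and nonclassical monocyte-like 655.4 CPM. The log2 differences that moved were, in immature neutrophil-like cells, -0.3 (NZB against NZW) and 0.15 (NZBWF1 against NZB) with at least 2000 UMIs and 1000 genes and 0.09 (NZBWF1 against the mean of the parents) and 0.19 (NZBWF1 against NZB) with clusters, and without scaling factors -0.26 (NZB against NZW) and 0.1 (NZBWF1 against NZB). The fit without scaling factors was chosen after seeing the data. In nonclassical monocyte-like cells NZB against NZW gave -1.38 with stricter gates and -0.12 with clusters, and NZBWF1 against NZB gave 1.13 with stricter gates. With at most 5% mitochondrial UMIs, basophil-like cells gave 1.79 (NZBWF1 against the mean of the parents) and 1.73 (against NZB), and pDC-like cells -1.48 (NZB against NZW).

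Called target tests between NZB and NZW (29) were 16 with at least 2000 UMIs and 1000 genes, where mature neutrophil-like cells could not be fitted, 15 by DESeq2, and 19 to 30 without 1 mouse (19 without NZW replicate 3). Those between NZBWF1 and NZB (14) were 9, 8 and 7 to 16 (7 without NZB replicate 2). Called regulator tests between NZB and NZW (26) were 17 by DESeq2, and those between NZBWF1 and NZB (10) were 7 by DESeq2 and 17 with clusters. Called processing tests between NZB and NZW (4) were 0 with at least 2000 UMIs and 1000 genes, 1 by DESeq2 and 1 with at least 10 counts in every mouse, and the call between NZBWF1 and NZB (1) gave 0 in each of these and 0 to 1 without 1 mouse, and 4 without scaling factors. Comparisons with 0 calls gave 2 targets (clusters) and 1 target (no filter) against the mean of the parents, 1 target and 1 processing call (clusters) against NZW, 1 regulator each with stricter gates, clusters and no filter against the mean of the parents (0 to 2 without 1 mouse), and 1 regulator each with stricter gates, no filter and the replicate block against NZW (0 to 1 without 1 mouse). The cause was not tested. All these counts are given without the share of all genes called under the same alternative. Of 1698 alternatives for single named genes 1480 kept the call, 218 lost it and 0 reversed.

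The replicate numbers were not taken to pair the mice, since correlations of same-numbered deviations ran from -0.126 to 0.241 over 3 classes, and not every mouse was closest to its own number. In immature neutrophil-like cells, however, they were all positive (0.002 to 0.241) and were 0.13 or more among mice numbered 1 and among mice numbered 2, the labels list the libraries by replicate number, and the second library of each strain had its highest ratio of free to kept Ngp (0.623 to 0.633). No label says whether mice of a number shared a preparation. With the number as a block, the difference of F630028O10Rik between NZB and NZW was -0.63 (SE 0.129) in precursor-like and -0.45 (SE 0.114, compared with 0.228 without the block) in early neutrophil-like cells, and 30 target tests and 28 regulator tests were called between these strains. Depth limits the basophil-like (140 cells in the mice used), early precursor-like (188) and nonclassical monocyte-like (201) values.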
